A study of Mus musculus with 4 samples.

Results

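The genes described here encode the proteins of the mitochondrial ribosome, as their symbols name them: Mrpl for the large subunit and Mrps for the small subunit, each followed by a digit. They were chosen by name alone, and 76 of the 28149 genes named on the array met the rule. Each gene was represented by 1 probe, the one with the highest mean log2 signal over the arrays. Of the 76 genes, 42 had 1 probe and 34 had several, which made 126 probes in all. All 76 were well above background on all 4 arrays, so the filter on dim probes removed none, and each matched a RefSeq gene of the same symbol.

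The 2 groups compared were miR-223 knockout and wild type, both male mice of strain C57BL/6, with 2 arrays each. Bone marrow cells of either genotype were grown for 4 days with GM-CSF at 40 ng/ml, a growth factor of granulocytes and macrophages, and the immature granulocytes that were expanding were then sorted. The RNA, carrying a single dye (Cy3), was put on Agilent mouse arrays that all sat on 1 slide. The labels do not say whether the 2 samples of a genotype came from separate animals, so p-values measure only the spread between these samples, which may be technical. How the knockout allele was made, the age of the mice and the gate of the sort are not given in the sources used here, and no probe carried the name of miR-223, so its loss was not checked.

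Mitochondria hold their own ribosomes, which translate the few proteins encoded in mitochondrial DNA, all of them core subunits of the respiratory chain and of ATP synthase. The ribosomal RNAs of these particles are transcribed from mitochondrial DNA, whereas all of their proteins are encoded in the nucleus, made in the cytosol and imported. Some of these proteins have counterparts in the bacterial ribosome and others were added during the evolution of mitochondria. Granulocytes lose much of their mitochondrial content as they mature and come to rely largely on glycolysis.

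The microRNA absent from the knockout pairs with target transcripts through its seed, bases 2 to 8. Its mature sequence from the 3′ arm is shown because its seed defines the site that was searched for in the probes (RefSeq, build GRCm38.p6, chrX:96242884-96242905, plus strand, seed in capitals):
miR-223-3p: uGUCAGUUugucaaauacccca
The matching 7-base site, AACTGAC, occurred in 0 of the 126 probes of mitochondrial ribosomal protein genes and in 153 of all 41174 probes (0.372%). A probe covers a short stretch of a transcript, so this count says nothing about the rest of the transcript.

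Levels are log2 processed intensities minus the array's 75th percentile, so that 0 is that percentile, and differences are knockout minus wild type. Errors are standard errors from limma with 2 arrays per group, and adjusted p-values are taken over all 16583 tested genes. The arrays had 57.6% to 63.5% of probes well above background and no saturated spot. Pearson's r taken across tested genes (genes are no replicates) was 0.994 between the knockout arrays, 0.990 between the wild-type arrays and 0.985 to 0.991 between genotypes. The 11 markers of immature granulocytes that were on the array were all measured, and their summed linear level was 3892 and 4270 times the 75th percentile on the knockout arrays, against 3658 and 3818 times on the wild-type arrays. The markers did not all go 1 way. In the knockout 9 were higher and 2 lower, from Mpo at -0.43 ± 0.24 and Camp at -0.18 ± 0.19 to Ngp at 0.50 ± 0.17. The summed levels of the measured markers of B cells, of T and NK cells and of erythroid cells lay between 0.138 and 2.84 on every array.

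No mitochondrial ribosomal protein gene passed limma's test at an adjusted p of 0.05 (0 of 76), and neither did any other gene of the table (0% of 16583). Most of the genes were slightly lower in the knockout samples: 54 had a lower mean and 22 a higher one, and the median difference was -0.10, beside 0.032 over all tested genes, of which 7497 were lower and 9086 higher. In bulk samples, fewer cells of a type and less RNA per cell cannot be told apart. The differences lay between -0.40 and 0.19, none exceeded 0.5 in size, and 42 of the 76 were smaller than their own standard error. In 30 genes (39.5%) both knockout arrays read lower than either wild-type array, beside 20.1% of all tested genes. In 4 genes (5.26%) both read higher, beside 28% of all tested genes. Without adjustment, 2 of the 76 had p under 0.05, beside 13.6% of all tested genes, so that the share at that level was smaller than in the table as a whole. Without wild-type array 1, 332 genes of the table passed at the adjusted threshold and still 0 of the 76. When arrays were scaled on spike-in controls, the median of all tested genes shifted by -0.11 to -0.074 and that of the 76 to -0.21. Of the 76, 72 were then lower. Under that scaling 0 of them read higher on both knockout arrays than on either wild-type array, beside 16.2% of all tested genes. Both scalings subtract a constant from each array, so the difference of every gene shifted alike. The position of the 76 relative to all tested genes, -0.13, could therefore not change.

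The 2 knockout arrays did not contribute equally to this. Against the wild-type mean, the median of the 76 genes was -0.011 on knockout array 1 and -0.16 on knockout array 2. Over all tested genes it was 0.050 and 0.019 on the same arrays. Below that mean stood 42 genes on array 1 and 66 on array 2. In 73 of the 76 genes (96.1%) array 2 was lower than array 1, beside 57.0% of all tested genes. For a single gene, the median absolute gap between the 2 arrays was 0.15 in the knockout and 0.12 in the wild type. Taken with its sign, the median gap of the 76 genes was 0.15 for knockout array 1 minus array 2 and -0.011 for wild-type array 1 minus array 2. The median difference was therefore -0.16 without knockout array 1 and -0.011 without knockout array 2. Relative to the median of all tested genes in the same settings, these were -0.19 and -0.069. Measured against 0, the lean of the list toward lower values rests mainly on 1 library. Relative to all tested genes it was present on both knockout arrays and larger on array 2. Its size there depended on which genes were tested. Without the filter on dim probes the median over all genes was -0.070, and the 76 stood at -0.031 relative to it, beside -0.13 with the filter. With only genes well above background on all 4 arrays they stood at -0.12.

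**Figure D1:**
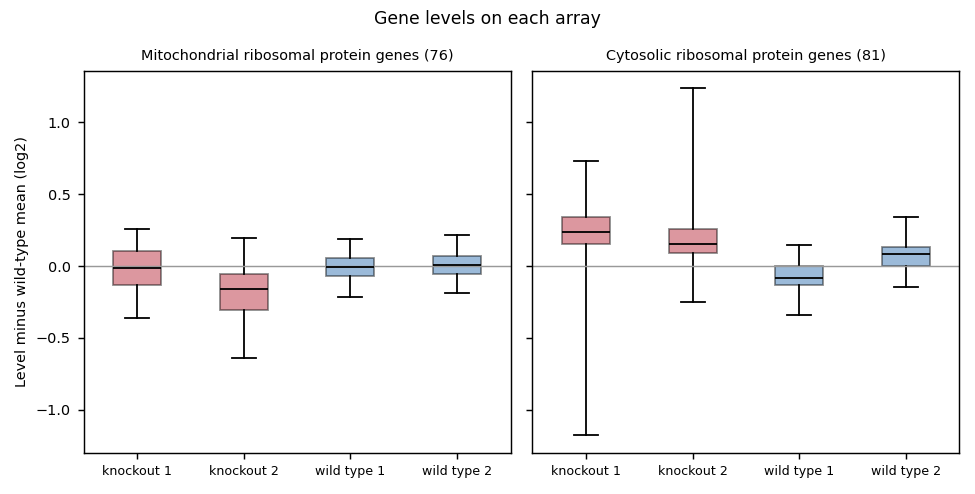
Level minus the gene's wild-type mean (log2, vertical axis) on each array for the 76 mitochondrial ribosomal protein genes (left) and the 81 cytosolic ribosomal protein genes (right); boxes span the quartiles, bars mark medians and whiskers reach the extremes. The mitochondrial genes have medians of -0.011 on knockout array 1 and -0.16 on knockout array 2, whereas the cytosolic genes have 0.24 and 0.15 on the same arrays.

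Markers of other cells differed too, and by their medians all 3 lists named next were lowest on the second knockout array. Against the wild-type mean, the medians on knockout arrays 1 and 2 were -0.61 and -2.18 for mast cells and basophils, -0.24 and -0.64 for dendritic cells, and -0.63 and -1.41 for macrophages and monocytes. The 6 measured markers of mast cells and basophils (of 8; Cma1 and Tpsb2 were too dim to be tested) were all lower in the knockout, with a median difference of -1.41, and in all 6 the arrays of the knockout read lower than either wild-type array. Their summed linear level was 13.5 on knockout array 1 and 4.09 on knockout array 2, against 19.9 and 20.8 on the wild-type arrays. The 8 dendritic cell markers summed to 173 and 116 on the knockout arrays, against 166 and 179 on the wild-type arrays, and 7 of them were lower. Of 13 macrophage and monocyte markers, 12 were lower, with a median difference of -1.11 and sums of 43.0 and 52.6 on the knockout arrays, against 49.9 and 62.2 on the wild-type arrays. Their part in the levels of the mitochondrial ribosomal protein genes was not tested.

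The members were then taken by their place in the ribosome. Of 30 large subunit proteins with a bacterial counterpart, 21 were lower and 9 higher, with a median difference of -0.032. Of 19 large subunit proteins particular to mitochondria, 15 were lower and 4 higher, with a median of -0.12. The small subunit had 11 lower and 5 higher among 16 proteins with a bacterial counterpart (median -0.15), and 6 lower and 4 higher among 10 proteins particular to mitochondria (median -0.10). On knockout array 2 the medians of these 4 groups were -0.13, -0.16, -0.22 and -0.19. On knockout array 1 they were 0.018, -0.049, -0.064 and -0.016. No test was made between these groups. Mrps36 meets the name rule but is now known as a component of the 2-oxoglutarate dehydrogenase complex, an enzyme of the citric acid cycle, and it differed by -0.064 ± 0.15.

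**Figure D2:**
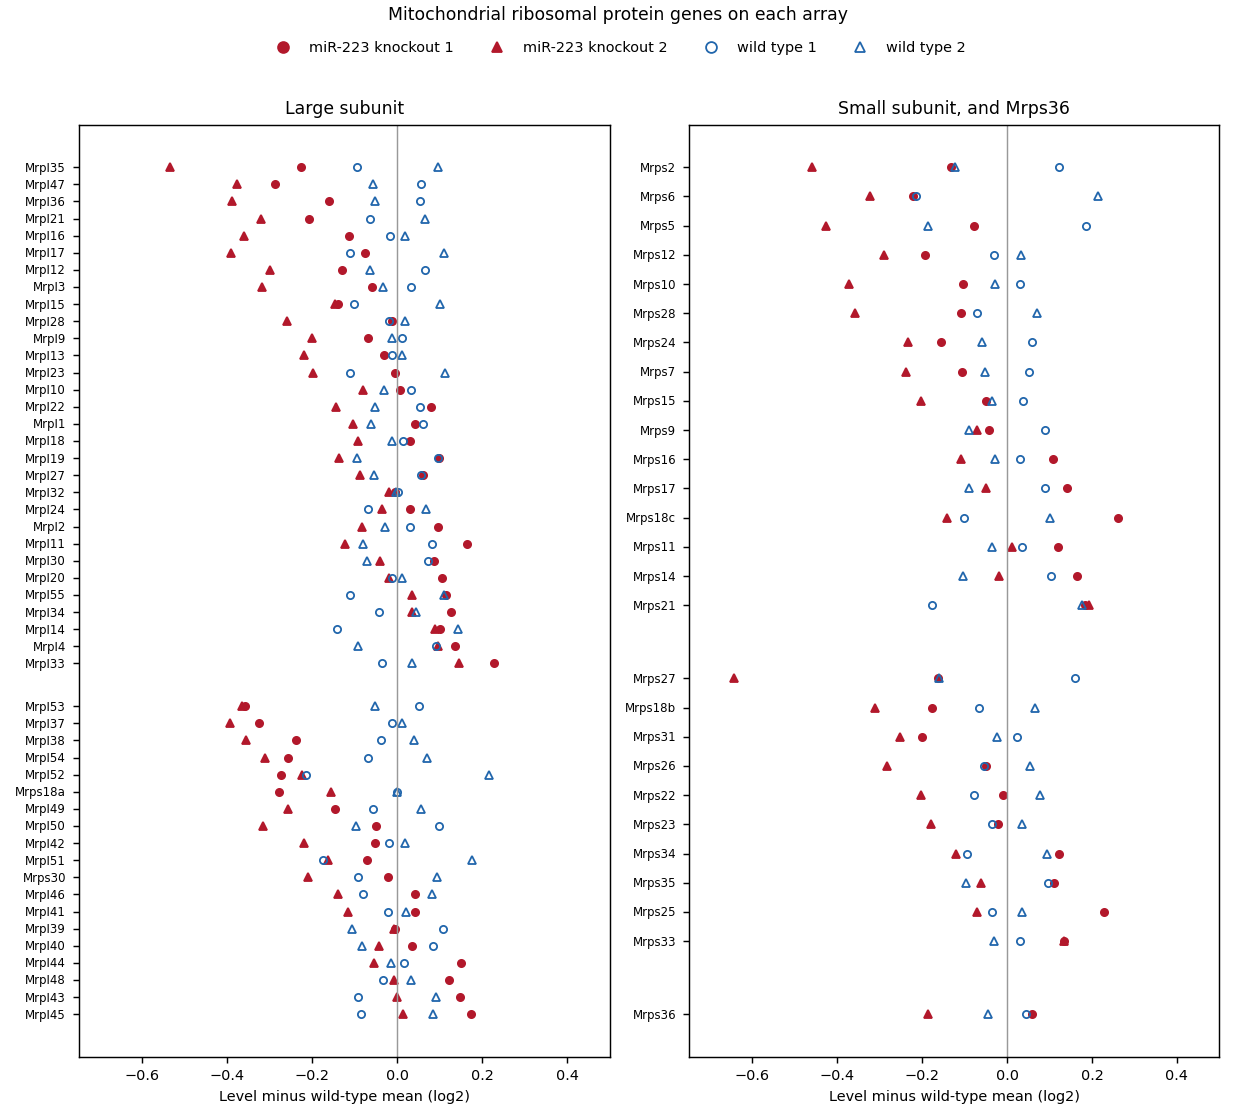
Level of each of the 76 genes on each array minus its wild-type mean (log2, horizontal axis), with proteins that have a bacterial counterpart above those particular to mitochondria and genes ordered by their difference; filled symbols are the knockout arrays and open symbols the wild-type arrays. In 73 genes the filled triangle of knockout array 2 lies left of the filled circle of knockout array 1.

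Among the large subunit proteins with a bacterial counterpart, Mrpl35 had the lowest value. Its level was 2.91 and 2.60 on the knockout arrays, against 3.04 and 3.23 on the wild-type arrays. The groups did not overlap, but the knockout arrays lay 0.31 apart and the difference of -0.38 ± 0.17 (SE, adjusted p = 0.423) did not pass the test. Its probe lies at chr6:71766082-71766141 (mm9), and the other probes of the gene, both dimmer, gave -0.41 and -0.91. The probe at -0.91 had -4.09 and -4.24 on the knockout arrays, against -4.02 and -2.48 on the wild-type arrays, so only wild-type array 2 stood apart. Mrpl47, the counterpart of bacterial L29 at the mouth of the tunnel through which new proteins leave, had 0.64 and 0.55 on the knockout arrays, against 0.98 and 0.87 on the wild-type arrays. Here both knockout arrays were lower than both wild-type arrays by more than either pair's own gap, with a difference of -0.33 ± 0.13 (SE, adjusted p = 0.373). Mrpl36, a small zinc-binding protein, stood at 3.41 and 3.18 in knockout cells, against 3.62 and 3.52 in wild-type cells, a difference of -0.28 ± 0.15. Mrpl21 followed with 2.18 and 2.07 in knockout cells, against 2.33 and 2.45 in wild-type cells, a difference of -0.26 ± 0.13. In both genes the lowest wild-type array still lay above the highest knockout array. Mrpl12, the stalk protein whose bacterial counterpart recruits translation factors, had 4.31 and 4.14 on the knockout arrays, against 4.50 and 4.37 on the wild-type arrays, and the groups were separated by only 0.064.

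At the other end of that group were Mrpl33 and Mrpl4. Mrpl33 had 6.96 and 6.88 on the knockout arrays, against 6.70 and 6.77 on the wild-type arrays. Both knockout arrays were higher, by 0.11 at the nearest, and the difference of 0.19 ± 0.12 (SE, adjusted p = 0.553) did not pass the test; it was 0.016 with quantile normalization, 0.081 with spike-in scaling and 0.12 with normexp. Mrpl4, whose bacterial counterpart lines the exit tunnel, had 1.999 and 1.96 on the knockout arrays, against 1.95 and 1.77 on the wild-type arrays, a difference of 0.12 ± 0.13, or 0.0099 with spike-in scaling. Its groups were next to touching, since the lower knockout array and the higher wild-type array were nearly level. Mrpl14 (0.10 ± 0.15) and Mrpl34 (0.081 ± 0.13) had overlapping groups. The signs of Mrpl14 and Mrpl34 turned when arrays were scaled on spike-in controls.

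The large subunit proteins particular to mitochondria held the smallest p-values of the list. Mrpl53 had 3.09 and 3.09 on the knockout arrays, against 3.50 and 3.40 on the wild-type arrays. Both knockout arrays were at the same level and both wild-type arrays were higher, with a difference of -0.36 ± 0.12 (SE, adjusted p = 0.340) and an unadjusted p of 0.0370; the probe lies at chr6:83059717-83059776 (mm9). Mrpl37 had 0.24 and 0.17 on the knockout arrays, against 0.55 and 0.57 on the wild-type arrays. Replicates were again close to each other, and the difference of -0.36 ± 0.12 (SE, adjusted p = 0.337), with an unadjusted p of 0.0355, was the one with the smallest p among the 76. In linear terms the knockout over wild-type ratios were 0.778 for Mrpl53 and 0.780 for Mrpl37. Unlike Mrpl35, both kept their values on either knockout array alone: relative to the wild-type mean, Mrpl53 was -0.36 on array 1 and -0.37 on array 2, and Mrpl37 was -0.33 on array 1 and -0.39 on array 2.

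Mrpl38, a protein of the central protuberance, had 0.11 and -0.010 on the knockout arrays, against 0.31 and 0.38 on the wild-type arrays. Its 3 probes gave -0.30, -0.34 and -0.28, so that the direction did not hang on the choice of probe. Mrpl54 had 3.52 and 3.47 on the knockout arrays, against 3.71 and 3.85 on the wild-type arrays, a difference of -0.28 ± 0.13 with groups apart. Mrpl52 had 3.93 and 3.98 in knockout cells, against 3.98 and 4.42 in wild-type cells, a difference of -0.25 ± 0.19. A second, far dimmer probe above background gave -0.77, with -3.68 and -4.31 in knockout cells, against -3.15 and -3.31 in wild-type cells. The highest value of these proteins was that of Mrpl45, which tethers the ribosome to the inner membrane, with 3.90 and 3.75 on the knockout arrays, against 3.65 and 3.82 on the wild-type arrays. Its groups overlapped, and its other probe gave -0.21 beside 0.094 ± 0.14 for the chosen one. Mrpl44 (0.048 ± 0.14), which holds a ribonuclease III-like fold, had overlapping groups, although its 3 probes gave 0.048, 0.11 and 0.14.

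In the small subunit, proteins with a bacterial counterpart were led by Mrps2. Its level was 0.74 and 0.42 on the knockout arrays, against 0.998 and 0.75 on the wild-type arrays, and the higher knockout array was almost level with the lower wild-type array. The difference was -0.30 ± 0.18 (SE, adjusted p = 0.533), but 2 further probes of the gene gave 0.33 and -0.067, so its direction depended on the probe, and the mean over probes was -0.011. The probe at 0.33 was far dimmer than the chosen one. It had -3.99 and -4.18 on the knockout arrays, against -4.11 and -4.72 on the wild-type arrays. Mrps6 had 1.55 and 1.45 in knockout cells, against 1.56 and 1.99 in wild-type cells, and the 0.43 between the wild-type arrays was larger than the difference of -0.27 ± 0.19. Mrps5 had 1.87 and 1.52 on the knockout arrays, against 2.13 and 1.76 on the wild-type arrays, with overlapping groups. All 4 of its probes were lower in the knockout, at -0.25, -0.30, -0.32 and -0.15. Mrps12, whose bacterial counterpart sits at the decoding centre, had 3.74 and 3.64 on the knockout arrays, against 3.90 and 3.96 on the wild-type arrays. Here the replicates were close and the groups apart, with a difference of -0.24 ± 0.12 (SE, adjusted p = 0.466).

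Mrps21 was the highest member of the list by its difference. It had 2.55 and 2.56 on the knockout arrays, against 2.19 and 2.54 on the wild-type arrays. Wild-type array 2 was level with the knockout arrays and only wild-type array 1 was lower, so that the difference of 0.19 ± 0.17 (SE, adjusted p = 0.656) came from 1 array: it was 0.011 without wild-type array 1, 0.30 with normexp and 0.081 with spike-in scaling. Mrps14 (0.074 ± 0.15) and Mrps11 (0.065 ± 0.13) overlapped between genotypes, and Mrps16 (-0.00075 ± 0.14) did not differ in its mean beyond rounding.

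The small subunit proteins particular to mitochondria included the lowest value of all. Mrps27, a pentatricopeptide repeat protein, had -0.24 and -0.72 on the knockout arrays, against 0.079 and -0.24 on the wild-type arrays. Knockout array 1 was nearly level with wild-type array 2, and knockout array 2 alone was far below, so the standard error of its difference, -0.40 ± 0.23 (SE, adjusted p = 0.497), was the largest of the 76. The linear ratio of knockout over wild type was 0.756, and the probe lies at chr13:100185032-100185091 (mm9). Mrps31 had 1.59 and 1.54 in knockout cells, against 1.82 and 1.77 in wild-type cells, a difference of -0.23 ± 0.12 with close replicates. Mrps33, by contrast, had 5.43 and 5.43 on the knockout arrays, against 5.33 and 5.27 on the wild-type arrays, both knockout arrays being higher, with a difference of 0.13 ± 0.12 (SE, adjusted p = 0.656). That difference was 0.052 with quantile normalization, 0.028 with spike-in scaling and 0.061 with the mean over probes. Mrps25 (0.079 ± 0.16), Mrps35 (0.024 ± 0.15) and Mrps34 (0.0017 ± 0.16) overlapped between genotypes.

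Mice carry 3 mitochondrial relatives of bacterial S18, of which Mrps18a sits in the large subunit and Mrps18b and Mrps18c in the small one. Mrps18a had 2.76 and 2.88 in knockout cells, against 3.03 and 3.03 in wild-type cells, a difference of -0.22 ± 0.12. Mrps18b had 0.73 and 0.60 in knockout cells, against 0.84 and 0.98 in wild-type cells, a difference of -0.24 ± 0.13. A second probe of Mrps18b that was above background gave 0.18, in the opposite direction. That probe was far dimmer, with -4.02 and -4.04 in knockout cells, against -4.43 and -3.998 in wild-type cells. Mrps18c had 4.13 and 3.73 in knockout cells, against 3.77 and 3.98 in wild-type cells, overlapping groups with a difference of 0.060 ± 0.19. Thus 2 of the relatives were lower on both knockout arrays and Mrps18c was not, but the difference between them was not tested.

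Across the list, 33 genes had 2 or more probes above background, and in 22 of them all such probes had 1 sign. Mrpl35, Mrpl52 and Mrps2 were the genes with a pair of probes more than 0.5 apart. The groups overlapped in 42 genes. The genes not yet named whose knockout arrays read lower than either wild-type array were Mrps10, Mrpl16, Mrps28, Mrpl49, Mrps24, Mrpl3, Mrps7, Mrpl15, Mrpl42, Mrpl9, Mrps15, Mrpl13 and Mrpl32, with differences between -0.24 and -0.013. Among those that overlapped, Mrpl17 (-0.23 ± 0.18), Mrpl50 (-0.18 ± 0.16) and Mrps26 (-0.17 ± 0.15) were the lowest of those not described above, Mrpl51 was at -0.12 ± 0.17, and Mrpl20 (0.043 ± 0.13), Mrpl48 (0.057 ± 0.13) and Mrpl43 (0.074 ± 0.14) were on the higher side. The remaining overlapping genes differed by -0.14 (Mrpl28) to 0.075 (Mrpl55).

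When all tested genes were split into 5 equal bands of mean signal, 41 of the 76 lay in the highest band, 29 in the next and 6 in the middle one. The members in these bands had median differences of -0.10, -0.064 and -0.22, beside 0.050, 0.0037 and -0.0046 over all tested genes of the same bands.

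The rest of the mitochondrial translation machinery was set beside the ribosomal proteins, and no gene of any of these lists passed the test. Of 7 further mitoribosomal proteins whose symbols do not follow the rule, 5 were lower, with a median of -0.099. Ptcd3 was at -0.20 ± 0.13, Dap3, a GTP-binding protein of the small subunit, at -0.15 ± 0.13, Chchd1 at -0.15 ± 0.13 and Aurkaip1 at 0.22 ± 0.14. Of 14 translation factors, 12 were lower, with a median of -0.16. Mtif2, the initiation factor that places the first transfer RNA, had 0.66 and 0.58 on the knockout arrays, against 0.90 and 0.87 on the wild-type arrays. Pdf, the deformylase that trims newly made proteins, had 0.998 and 0.998 in knockout cells, against 1.26 and 1.24 in wild-type cells. In both genes the arrays of the genotypes were apart, with differences of -0.27 ± 0.12 for Mtif2 and -0.25 ± 0.12 for Pdf. Taco1, an activator of Cox1 translation, was at -0.28 ± 0.15.

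Of 20 enzymes that charge mitochondrial transfer RNAs, 17 were lower, with a median of -0.16. The lowest was Gatb, a subunit of the amidotransferase that makes glutaminyl-tRNA, with -0.076 and -0.34 on the knockout arrays, against 0.38 and 0.16 on the wild-type arrays, a difference of -0.48 ± 0.16 (SE, adjusted p = 0.342). Mars2 (-0.42 ± 0.22) and Nars2 (-0.37 ± 0.15) followed, and Lars2 (0.27 ± 0.17) was the highest. Of 23 assembly and ribosomal RNA modification factors, 16 were lower, with a median of -0.076. Fastkd2, an RNA-binding protein of the large subunit's assembly, had -0.47 and -0.71 in knockout cells, against -0.12 and -0.18 in wild-type cells, a difference of -0.44 ± 0.14. Mrm3, a methyltransferase of the large ribosomal RNA, was at -0.38 ± 0.12 and the helicase Ddx28 at -0.34 ± 0.14. Among the same factors Mettl17 (0.29 ± 0.13) and the methyltransferase Nsun4 (0.24 ± 0.13) were higher on both knockout arrays.

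Of 19 genes for the transcription, replication and RNA handling of mitochondrial DNA, 14 were lower, with a median of -0.16. Lrpprc, which stabilises mitochondrial messenger RNAs, had 2.41 and 2.21 in knockout cells, against 2.76 and 2.57 in wild-type cells, a difference of -0.35 ± 0.15. Pnpt1, an RNA-degrading enzyme, was at -0.36 ± 0.14. Tfam, which packages mitochondrial DNA and starts its transcription, was higher, with 6.504 and 6.16 on the knockout arrays, against 5.73 and 5.74 on the wild-type arrays, and a difference of 0.59 ± 0.17 (SE, adjusted p = 0.300). Slirp, the partner of Lrpprc, was at 0.18 ± 0.13.

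The RNAs encoded in mitochondrial DNA and those of nuclear subunits of the respiratory chain and ATP synthase were taken next. Their medians were nearer to 0 or above it at the 75th percentile scaling, and these depended on the scaling. Protein levels were not measured. Of 4 measured genes encoded in mitochondrial DNA, 3 were higher, with a median of 0.14: mt-Co2 was at 0.24 ± 0.12, mt-Atp6 at 0.20 ± 0.17, mt-Cytb at 0.089 ± 0.12 and mt-Nd4 at -0.0089 ± 0.12. Nuclear subunits of complex I were 18 higher and 18 lower (median 0.00093), those of complexes II to IV were 12 higher and 12 lower (median -0.0025), and those of ATP synthase were 7 higher and 8 lower (median -0.011). With quantile normalization these 4 medians were -0.065, -0.042, -0.094 and -0.092, and under spike-in scaling they were 0.037, -0.11, -0.11 and -0.12, so the genes of mitochondrial DNA turned sign with quantile normalization and complex I under both. The medians of the ribosomal, translation, charging, assembly and RNA handling lists stayed below 0 under both scalings. Cytosolic ribosomal proteins had 72 of 81 genes higher and a median of 0.20, and in 51 of them (63.0%) both knockout arrays read higher than either wild-type array. Under quantile normalization that median was 0.043 and that of the mitochondrial ribosomal proteins -0.11; under spike-in scaling the medians were 0.091 and -0.21. The difference between these lists was not tested.

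**Figure D3:**
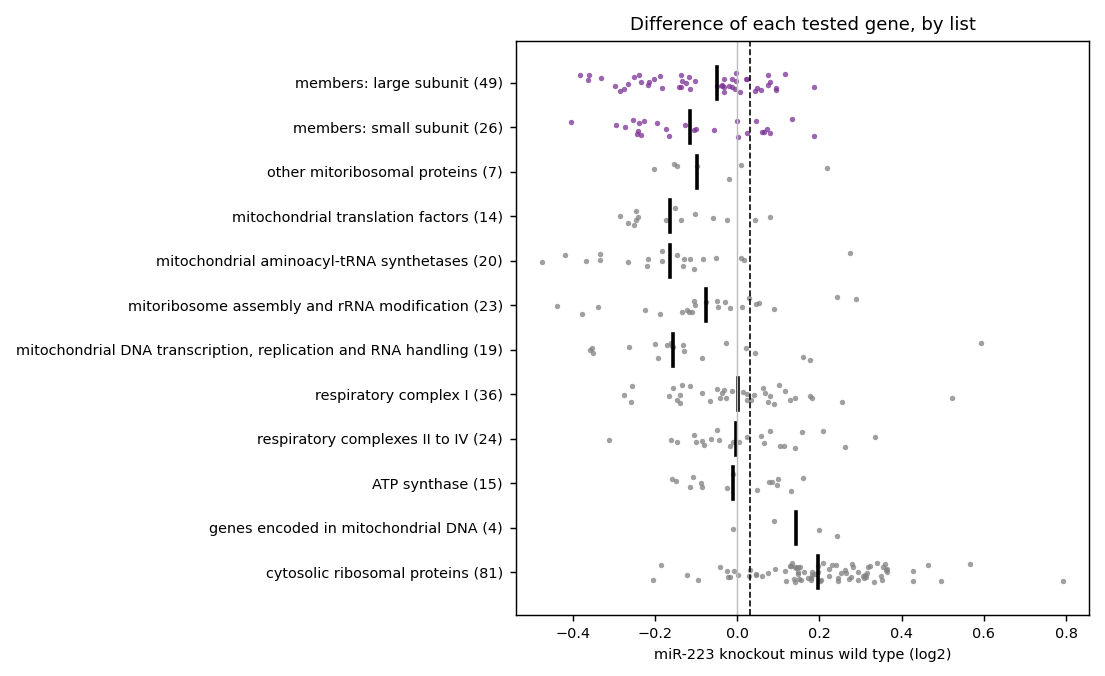
Knockout minus wild-type difference (log2, horizontal axis) of each tested gene, by list, with the number of genes in brackets; black bars are list medians, the dashed line is the median of all tested genes (0.032) and the grey line is 0. The large and small subunit genes have medians of -0.049 and -0.12, and the cytosolic ribosomal proteins have 0.20.

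Genes for regulators of mitochondrial gene expression were given one by one. Ppargc1b, a coactivator of mitochondrial biogenesis, had 0.29 and 0.18 on the knockout arrays, against 0.74 and 0.92 on the wild-type arrays, a difference of -0.60 ± 0.14 (SE, adjusted p = 0.264). Pprc1, a coactivator of the same family, had 0.91 and 0.82 on the knockout arrays, against 1.47 and 1.22 on the wild-type arrays, a difference of -0.48 ± 0.15 (SE, adjusted p = 0.321). In both, the knockout arrays lay below the wild-type arrays by more than the gap of either pair. Esrra, a nuclear receptor that works with these coactivators, was at -0.19 ± 0.12. The DNA-binding factors themselves were nearer to 0: Yy1 at -0.072 ± 0.12, Nrf1 at -0.019 ± 0.13 and Gabpa at -0.0069 ± 0.14, with Gabpb1 at 0.25 ± 0.12 and Myc at 0.31 ± 0.23. Ppargc1a was too dim to be tested.

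Promoters were read for 67 of the 76 genes, from 250 bases before to 50 after the RefSeq start (GRCm38.p6). Mrpl13, Mrpl15, Mrpl19, Mrpl38, Mrpl4, Mrpl54, Mrps28, Mrps34 and Mrps35 had no match in the promoter table. In these windows 6 motifs were searched on both strands, and each share is set beside that of all 27025 genes with a window. The ETS motif CCGGAAG, the letters that GABP-type factors bind, was in 24 of the 67 (35.8%), beside 9.93% of all genes. The YY1 motif AAGATGGC was in 12 (17.9%), beside 3.19%. The NRF1 core GCATGCGC was in 8 (11.9%), beside 3.05%, and the fuller NRF1 motif, the same letters preceded by GC, in 3 of those 8 (4.48% of the 67), beside 1.07%. The CCAAT motif was in 27 (40.3%), beside 41.1%, and TATAAA in 5 (7.46%), beside 15.7%. The 27025 genes include many that were not tested here, whereas all members were well above background. Among other tested genes with a window, ETS was present in 1979 and absent from 8307. YY1 was present in 524 of them and absent from 9762. Against these genes the members' excess of ETS, YY1 and both NRF1 motifs was smaller, and so was their shortfall of TATAAA. At least 1 of ETS, YY1 and the NRF1 core occurred in 36 of the 67, and 3 held both ETS and YY1. A match describes the letters and is not evidence of binding.

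The 120 bases before the start are shown for the genes with the lowest difference (Mrps27), the lowest with closely agreeing knockout arrays (Mrpl53) and the highest with close replicates in both genotypes (Mrpl33), with the ETS motif in capitals in the first and second and the NRF1 core in capitals in the third (GRCm38.p6, plus strand for all 3: chr13:99344666-99344785, chr6:83108988-83109107 and chr5:31613831-31613950):
Mrps27: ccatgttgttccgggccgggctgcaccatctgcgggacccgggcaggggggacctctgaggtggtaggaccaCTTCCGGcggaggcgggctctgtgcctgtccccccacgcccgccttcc
Mrpl53: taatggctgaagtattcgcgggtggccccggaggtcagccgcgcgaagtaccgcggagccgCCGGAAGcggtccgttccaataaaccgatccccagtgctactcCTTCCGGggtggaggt
Mrpl33: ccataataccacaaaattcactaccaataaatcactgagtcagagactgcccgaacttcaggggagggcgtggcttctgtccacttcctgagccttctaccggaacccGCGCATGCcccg
Counted from the start, the ETS motif began at base -48 in Mrps27 and at bases -59 and -16 in Mrpl53. The NRF1 core of Mrpl33 reads on the opposite strand. Mrpl33 also holds an ETS motif that begins at base -3 and runs past the end of the stretch shown.

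Genes with the YY1 motif were lower as a set of values than those without it, by description only. Of the 12 with the motif, 11 were lower and in 11 (91.7%) both knockout arrays read lower than either wild-type array, with a median difference of -0.21. Of the 55 without it, 37 were lower and 14 (25.5%) were separated in this way, with a median of -0.037. On knockout array 1 alone the medians were -0.16 with the motif and 0.029 without, and on knockout array 2 they were -0.25 and -0.14. The other tested genes of the table did not show a gap of this size: 24.8% of 524 with the motif were separated downward, beside 21.8% of 9762 without, and the medians were -0.014 and 0.017. No test was made, since the motif groups were compared after 6 motifs had been searched. For the other motifs the shares separated downward were 33.3% with and 39.5% without ETS, 37.5% with and 37.3% without the NRF1 core, and 40.7% with and 35.0% without CCAAT. They were 40.0% of 5 with and 37.1% without TATAAA, and 66.7% of the 3 with and 35.9% without the fuller NRF1 motif.

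The motif and its flanks are shown for the 3 lowest and the single gene of the 12 that was not lower, with the motif in capitals (GRCm38.p6: chr13:99344792-99344815 plus, chr6:71823746-71823769 minus, chr4:107066825-107066848 minus and chr7:78783016-78783039 plus):
Mrps27: tgcgctccAAGATGGCggctccca
Mrpl35: caggctgcAAGATGGCggcttcca
Mrpl37: cacgggcaAAGATGGCggcgtcca
Mrps11: cgggcgccGCCATCTTtctgtctt
In Mrps27, Mrpl35 and Mrpl37 the motif lay just after the start, at bases 15, 24 and 27, and reads forward. In Mrps11 it reads on the opposite strand and began at base -107. Of the 12 motifs, 8 lay after the start. The 12 genes were, from the lowest difference to the highest, Mrps27, Mrpl35, Mrpl37, Mrpl36, Mrps12, Mrps18a, Mrpl49, Mrps24, Mrps7, Mrpl42, Mrpl32 and Mrps11, and the difference of Mrpl32 was only -0.013. That of Mrpl49 was -0.20 by its chosen probe, but -5.5e-06 and -0.014 by its other probes.

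**Figure D4:**
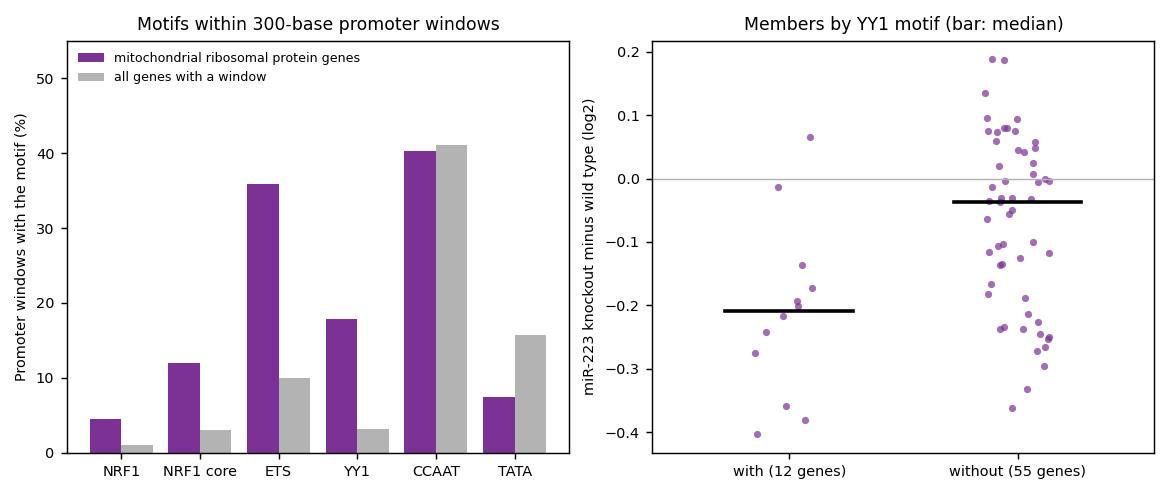
Left, share of promoter windows that hold each motif (percent) among the 67 mitochondrial ribosomal protein genes and among all 27025 genes, tested or not. Right, knockout minus wild-type difference (log2) of the genes with and without the YY1 motif, with bars at the medians of -0.21 and -0.037. ETS and YY1 motifs are at 35.8% and 17.9% of the genes, and the groups with and without YY1 overlap in their values.

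Some of these genes share a promoter region with a neighbour read in the opposite direction. Within 300 bases of each other's start lay 20 of the members, in 19 pairs, of which 16 had both genes measured. In 9 of the 16 the pair had the same sign, and in 7 both were lower. How often genes of the whole table have such a neighbour, or share its sign, was not counted. Mrps27 and Ptcd2, a pentatricopeptide protein, start 108 bases apart and differed by -0.40 and -0.25. Mrps12 and Sars2, the mitochondrial seryl-tRNA synthetase, start 147 bases apart and differed by -0.24 and -0.33. Mrpl37 and Cyb5rl, 128 bases apart, differed by -0.36 and -0.50. Against these stood Mrpl49 and Fau, a cytosolic ribosomal protein gene 192 bases away, at -0.20 and 0.32, and the pair of members Mrpl46 and Mrps11, 42 bases apart, at -0.049 and 0.065. The value of Mrpl49 is that of its chosen probe, and its other probes, both above background, gave -5.5e-06 and -0.014. None of these neighbours passed the test.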

How the data were processed

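Gene expression was measured in 4 samples, 2 miR-223 knockout and 2 wild type, with 1-colour Agilent arrays. Per the file headers, Agilent Feature Extraction (10.5.1.1) gave each spot a background-subtracted intensity with no normalization between arrays, and probe coordinates are mm9. The log2 values deposited by the authors differ from log2 of that intensity by a constant for each array, within 0.01 for 99.8% of probes, with medians of 5.03; how they were scaled is not given in the sources used here, and they served as an alternative.

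Control spots and outlier flags were left out, spots of a probe were averaged on the log2 scale, and the 75th percentile of the array was subtracted; it was an intensity of 514 and 493 in the knockout and 586 and 486 in the wild type. Genes are those of the array's gene names. Genes flagged well above background by Feature Extraction in both samples of 1 genotype or of both (16583) were fitted with limma 3.58.1 (lmFit and eBayes, two-sided) in R 4.3.3, with Benjamini-Hochberg adjustment over all of them, after a check on simulated data. Precision is limited by the number of arrays, with a median standard error of 0.14 for a member's difference.

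The members and all gene lists were chosen with earlier results of these data known, so counts and medians of lists are descriptions without a test. Genes given with their values were the 4 highest and 4 lowest members of each role group, the 2 with the highest signal in each, the S18 relatives, members whose probes differed by over 0.5, up to 3 genes per direction of each related list, all regulators, and the members that the promoter and neighbour results turn on. Mrpl12, Mrpl17, Mrpl28, Mrpl50, Mrpl55 and Mrps36 fall outside this rule and were given after their values were seen, and the promoter and neighbour searches were likewise added then. Promoter and miRNA sequences are RefSeq's, build GRCm38.p6. Alternatives covered background correction, scaling, the authors' values, dim-probe filters, probe choice, each array left out and the replicate number as a block.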

Additional observations from a re-analysis of the deposited data

How the results depend on the processing

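Under every alternative run, 0 of the 76 genes passed at an adjusted p of 0.05. Their median difference stayed below 0, between -0.21 under spike-in scaling and -0.011 without knockout array 2; it was -0.10 with normexp background correction, -0.11 with quantile normalization, -0.080 with the authors' deposited values and -0.083 with the mean over all probes of a gene. Over the whole table, 5 genes passed with normexp, 4 with spike-in scaling, and between 0 and 332 with 1 array left out, the 332 without wild-type array 1. A gene was separated upward when each knockout array read higher than either wild-type array. This held for 1 of the 76 with quantile normalization, 0 with spike-in scaling and 8 with the authors' values. The matching shares of all tested genes were 26.4%, 16.2% and 29.6%. With 1 array left out, 4 to 28 of the 76 were separated upward and 30 to 56 downward, since fewer arrays have to be apart. Over all tested genes the shares were then 39.0% to 43.5% upward and 27.1% to 37.2% downward. The knockout and wild-type samples share replicate numbers in the labels and nothing else; the deviations of knockout array 1 and wild-type array 1 from their group means correlated at 0.18 over tested genes and 0.24 over the 76, and with 2 arrays per group the other pair mirrors this one. With the replicate number as a block, the median of the 76 was -0.10 and no call changed. In this balanced design a block cannot change the difference of a gene read on all 4 arrays, so that median was fixed in advance.

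Of 46 members given with a value, 14 turned sign under spike-in scaling: Mrpl14 (-0.011), Mrpl20 (-0.064), Mrpl34 (-0.026), Mrpl43 (-0.032), Mrpl44 (-0.059), Mrpl45 (-0.012), Mrpl48 (-0.049), Mrpl55 (-0.031), Mrps11 (-0.041), Mrps14 (-0.033), Mrps18c (-0.047), Mrps25 (-0.027), Mrps34 (-0.10) and Mrps35 (-0.082). Signs also turned with normexp for Mrpl48 (-0.016) and Mrps16 (0.067), with quantile normalization for Mrpl20 (-0.029) and Mrps34 (-0.047), with the authors' values for Mrpl32 (0.0086) and Mrps16 (0.020), and with the mean over probes for Mrpl17 (0.0084), Mrpl45 (-0.059) and Mrps18b (0.19). With 1 array left out, values spanned both signs in 15 genes: Mrpl14 (-0.047 to 0.24), Mrpl20 (-0.019 to 0.10), Mrpl43 (-0.017 to 0.17), Mrpl44 (-0.055 to 0.15), Mrpl46 (-0.14 to 0.042), Mrpl48 (-0.0079 to 0.12), Mrpl51 (-0.29 to 0.058), Mrpl55 (-0.035 to 0.19), Mrps14 (-0.029 to 0.18), Mrps16 (-0.11 to 0.11), Mrps18c (-0.14 to 0.26), Mrps25 (-0.071 to 0.23), Mrps34 (-0.12 to 0.12), Mrps35 (-0.073 to 0.12) and Mrps36 (-0.19 to 0.059). The turns under spike-in scaling and with the authors' values follow from a shift shared by all genes, of -0.11 and 0.021. A member turned there when its difference was smaller in size than that shift and opposite in sign. Beyond these shifts and the arrays left out, the cause of the turns was not tested.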
